A study of Mus musculus with 12 samples.

Results

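Hox genes and homeobox genes that work beside them were read by microarray in mouse fibroblasts, cells induced with Oct4 and Tet1, and ES cells. The members are the 42 genes whose probe set carries a single gene symbol starting with Hoxa, Hoxb, Hoxc or Hoxd and a number, or with Meis, Pbx, Pknox or Irx and a number, and the sine oculis homeobox genes Six2, Six4 and Six5, chosen in the same way, out of 9539 genes tested. They comprise 27 Hox genes with a paralogue number (6 of HoxA, 5 of HoxB, 9 of HoxC and 7 of HoxD), 3 Meis, 2 Pbx, 2 Pknox, 4 Irx and 3 sine oculis genes, and Hoxd3os1, a long noncoding RNA gene named for its position opposite Hoxd3. Each member had 1 probe set. RefSeq lists 60 genes with names of these kinds and 41 of them are among the members, so the other 19 were not analysed here. Every probe set in the deposited table varied by at least 1.42-fold between its lowest and highest array. Counts over the members therefore describe genes that varied somewhere in the 12 arrays and not the whole families.

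The iPS cells were line OT#b, induced with Oct4 and Tet1, at passage 10 and on the OG2-GFP/Rosa26-M2rtTA background. R1 cells of strain 129, at passage 20, were the ES cells. Day-1 cells were fibroblasts derived from OT-iPSC mice at passage 3, of the OG2-GFP/Rosa26-M2rtTA background, given ES medium with doxycycline for 1 day to switch on the transgenes. Fibroblasts were at passage 3 and of the OG2-GFP/Rosa26-M2rtTA background, which the labels of replicates 2 and 3 write as M3rtTA and M4rtTA. Each of these 4 groups had 3 arrays. The iPS cells and the ES cells are 1 line each, both grew on mitomycin C treated feeder fibroblasts, and a plating step to remove feeders is described for the ES cells. The labels name neither the tissue of origin of the fibroblasts nor separate cultures behind the arrays of a group, so the p-values speak of the spread among these arrays, which may be technical.

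Hox proteins are homeodomain transcription factors encoded in 4 clusters, and low paralogue numbers act towards the head while high numbers act towards the tail and the tips of the limbs. On DNA they pair with proteins of the TALE homeodomain class, in particular Pbx and Meis, and Pknox proteins bind Pbx in the same manner as Meis. Irx proteins are also of the TALE class but pattern tissues on their own, while proteins of the sine oculis family, Six2 among them, are homeodomain factors of a separate class that act with Eya cofactors. Cultured fibroblasts keep the Hox pattern of the body site they came from, and in pluripotent cells the Hox clusters are held silent by Polycomb complexes.

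The induced factors were read first, as a check of the labels. Pou5f1, which encodes Oct4, averaged a log2 value of 12.01 in iPS cells, 12.36 in ES cells and 11.79 in day-1 cells, against 5.04 in fibroblasts. Tet1 averaged 10.25 in iPS cells, 11.36 in ES cells and 7.46 in day-1 cells, against 6.68 in fibroblasts. The day-1 difference of Tet1, 0.79 ± 0.09 on the log2 scale, was below the 2-fold minimum used here for a call, so Pou5f1 was the induced factor called on day 1. Array medians were 7.98 to 8.06 in iPS cells, 7.89 to 7.98 in ES cells, 8.25 to 8.29 in day-1 cells and 8.25 to 8.29 in fibroblasts. All 14 pluripotency markers were higher in both lines than in fibroblasts. The mean over 14 fibroblast markers was 9.0 to 9.10 in iPS cells and 8.04 to 8.41 in ES cells, and 11.07 to 11.16 in day-1 cells against 11.25 to 11.49 in fibroblasts. ES replicate 2 stood apart from the other two ES arrays in some of these genes, for example in Lox, a collagen cross-linking enzyme, at 9.06 against 7.63 and 7.73. In RNA from whole cultures, fewer cells of a type and less RNA per cell cannot be told apart.

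The first question was how far the pluripotent lines differed from fibroblasts in these positional genes. Fell and rose mean lower and higher than in the fibroblasts, and not a course of 1 culture in time. A gene was called where limma's adjusted p was under 0.05 and the log2 difference was at least 1. Against fibroblasts, 25 of the 42 members fell in iPS cells, 0 rose and 17 were not called by limma, with a median log2 difference of -1.22, and 4 were higher at an unadjusted p under 0.05. Arrays of 40 members did not overlap, as for 94.0% of all genes, and the adjusted p alone was under 0.05 for 40 members and 94.2% of all genes. Over all genes tested, 29.6% fell and 21.8% rose in the same comparison, 51.3% in either direction, and the median was -0.35. In ES cells 26 members fell and 1 rose, with a median of -1.31, where 32.1% of all genes fell, 23.4% rose, 55.6% changed in either direction and the median was -0.35. There too 40 members had arrays that did not overlap, against 94.0% of all genes, and 41 had an adjusted p under 0.05, against 94.9%. Both comparisons, and that of day-1 cells, use the same 3 fibroblast arrays. With the arrays centred on a common median, the counts were 18 lower and 1 higher in iPS cells and 19 lower and 1 higher in ES cells, and the median over all genes was -0.10 in iPS cells.

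Among the HoxA genes 5 of 6 fell in both lines, with a median log2 difference of -1.74 in iPS cells and -1.60 in ES cells against fibroblasts. Hoxa10, which patterns the lumbar spine and the uterus, read 6.34, 6.38 and 6.45 in iPS cells and 6.29, 5.98 and 6.67 in ES cells, against 8.70, 8.78 and 8.81 in fibroblasts. Hoxa11, needed for the forearm bones, read 5.99, 5.73 and 5.76 in iPS cells and 5.92, 5.88 and 5.79 in ES cells, against 7.84, 7.93 and 8.43 in fibroblasts. For both genes every pluripotent array was below every fibroblast array, and the iPS and ES arrays overlapped. Hoxa10 was 5.19-fold lower in iPS cells (log2 difference -2.38 ± 0.14 SE, limma adjusted p = 2.41e-09) and 5.47-fold lower in ES cells. Hoxa11 was 4.73-fold lower in iPS cells and 4.61-fold lower in ES cells. Hoxa9, a posterior gene also known for its part in leukaemia, was lower by a log2 difference of -1.87 in iPS cells and -1.90 in ES cells. Hoxa13, which patterns hands and feet, differed by -1.60 in iPS cells and -1.30 in ES cells. Hoxa6, a gene of the trunk, differed by -1.23 in iPS cells and -1.24 in ES cells. Hoxa7, another trunk gene, was the member below the 2-fold minimum, at -0.45 in iPS cells and -0.60 in ES cells. With centred arrays Hoxa6 lost its call in both lines and Hoxa13 in ES cells.

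The HoxB genes in the table, 5 of the 10 in RefSeq, had the smallest median difference of the 4 clusters. It was -0.61 in iPS cells and -0.57 in ES cells. Of the 5 genes 2 fell in each line. Hoxb9, a thoracic gene, read 7.77, 7.99 and 7.84 in iPS cells and 7.23, 7.68 and 7.64 in ES cells, against 9.18, 9.09 and 9.04 in fibroblasts. Its log2 difference was -1.23 ± 0.11 (SE, limma adjusted p = 1.53e-07) in iPS cells and -1.59 ± 0.11 in ES cells. Hoxb2, a hindbrain gene, differed by -1.04 ± 0.08 in iPS cells and -1.31 ± 0.08 in ES cells. The iPS calls of Hoxb9 and Hoxb2 and the ES call of Hoxb2 were lost with centred arrays, and the iPS call of Hoxb2 was also lost without iPS replicate 2 and with quantile normalization. Hoxb3, also of the hindbrain, and Hoxb5, of the neck region, lay between -0.61 and -0.56 in both lines and were not called. Hoxb6, expressed in lateral plate mesoderm, read 6.55, 6.36 and 5.94 in iPS cells against 6.27, 6.42 and 6.54 in fibroblasts. Those arrays overlapped, and the log2 difference of -0.13 had a 95% interval of -0.41 to 0.15 and turned positive with centred arrays. Fibroblast means were 6.32 for Hoxb5 and 6.41 for Hoxb6, and whether low signal limited a fall was not tested.

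HoxC held the largest difference of any member. Hoxc6, a gene of the upper thorax, read 6.37, 6.03 and 6.13 in iPS cells and 5.70, 5.52 and 5.05 in ES cells, against 9.08, 9.19 and 9.32 in fibroblasts. Its level was 8.10-fold lower in iPS cells (log2 difference -3.02 ± 0.14 SE, limma adjusted p = 2.23e-10) and 13.7-fold lower in ES cells (-3.77 ± 0.14, limma adjusted p = 2.00e-11). Hoxc8, which patterns the lower thorax, read 7.41, 7.45 and 7.17 in iPS cells and 6.75, 6.47 and 6.41 in ES cells, against 9.57, 9.54 and 9.49 in fibroblasts. For both genes the 3 groups were fully separated, with ES cells lowest and fibroblasts highest. Hoxc8 was 4.55-fold lower in iPS cells and 7.95-fold lower in ES cells. Of the 9 HoxC genes 7 fell in each line, with a median of -1.71 in iPS cells and -2.28 in ES cells. Hoxc5, Hoxc10 and Hoxc12, which act at neck, lumbar and tail levels, lay between -2.37 and -1.71 in both lines. Hoxc9, of the lower thorax, differed by -1.07 in iPS cells and -1.44 in ES cells. The iPS call was lost with centred arrays, with quantile normalization and without iPS replicate 3. Hoxc11, of the hindlimb level, was called in iPS cells at -1.03 and not in ES cells at -0.88. Hoxc13, which controls hair keratin genes, was called in ES cells at -1.08 and not in iPS cells at -0.72. Their calls were lost with centred arrays, and those of Hoxc11 without iPS replicate 1 and of Hoxc13 without fibroblast replicate 1.

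Hoxc4, a cervical gene, departed from its neighbours, and its signal was low from the start. Its fibroblast mean of 5.50 was near the iPS mean of Hoxc10, 5.41. Whether low signal limited a fall was not tested. It read 5.61, 5.37 and 5.53 in iPS cells and 4.66, 4.83 and 4.95 in ES cells, against 5.39, 5.65 and 5.46 in fibroblasts. The iPS arrays overlapped those of fibroblasts, with a log2 difference of 0.01 and a 95% interval of -0.20 to 0.22, and the sign turned with quantile normalization. All ES arrays lay below both other groups, and the difference from fibroblasts was -0.68 ± 0.10, short of the 2-fold minimum.

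Among the 7 numbered HoxD genes 4 fell in each line, with a median of -1.74 in iPS cells and -1.68 in ES cells. These 4 calls also stood with centred arrays. Hoxd10, of lumbar motor neurons and the limb, read 5.31, 5.28 and 5.13 in iPS cells and 5.90, 6.03 and 5.79 in ES cells, against 7.97, 8.25 and 8.12 in fibroblasts. The groups were separated, here with iPS cells lowest. Hoxd10 was 7.34-fold lower in iPS cells (log2 difference -2.88 ± 0.11 SE, limma adjusted p = 2.95e-11) and 4.63-fold lower in ES cells (-2.21 ± 0.11, limma adjusted p = 2.70e-10). Hoxd13, the gene at the tail end of the cluster that patterns digits, read 6.35, 6.24 and 6.31 in iPS cells and 6.29, 6.61 and 6.04 in ES cells, against 8.18, 7.84 and 8.17 in fibroblasts. Its log2 difference was -1.77 in iPS cells and -1.75 in ES cells. The arrays of the 2 lines overlapped. Hoxd8, of the trunk, differed by -2.14 in iPS cells and -2.04 in ES cells. Hoxd11, which acts with Hoxa11 in the forearm, differed by -1.74 in iPS cells and -1.68 in ES cells. Hoxd4, of the hindbrain and neck, Hoxd9 and Hoxd12, both of the limb, lay between -0.96 and -0.46 in the 2 lines and were not called. Hoxd3os1 was not called either, with a difference of 0.53 in iPS cells and -0.20 in ES cells.

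**Figure D1:**
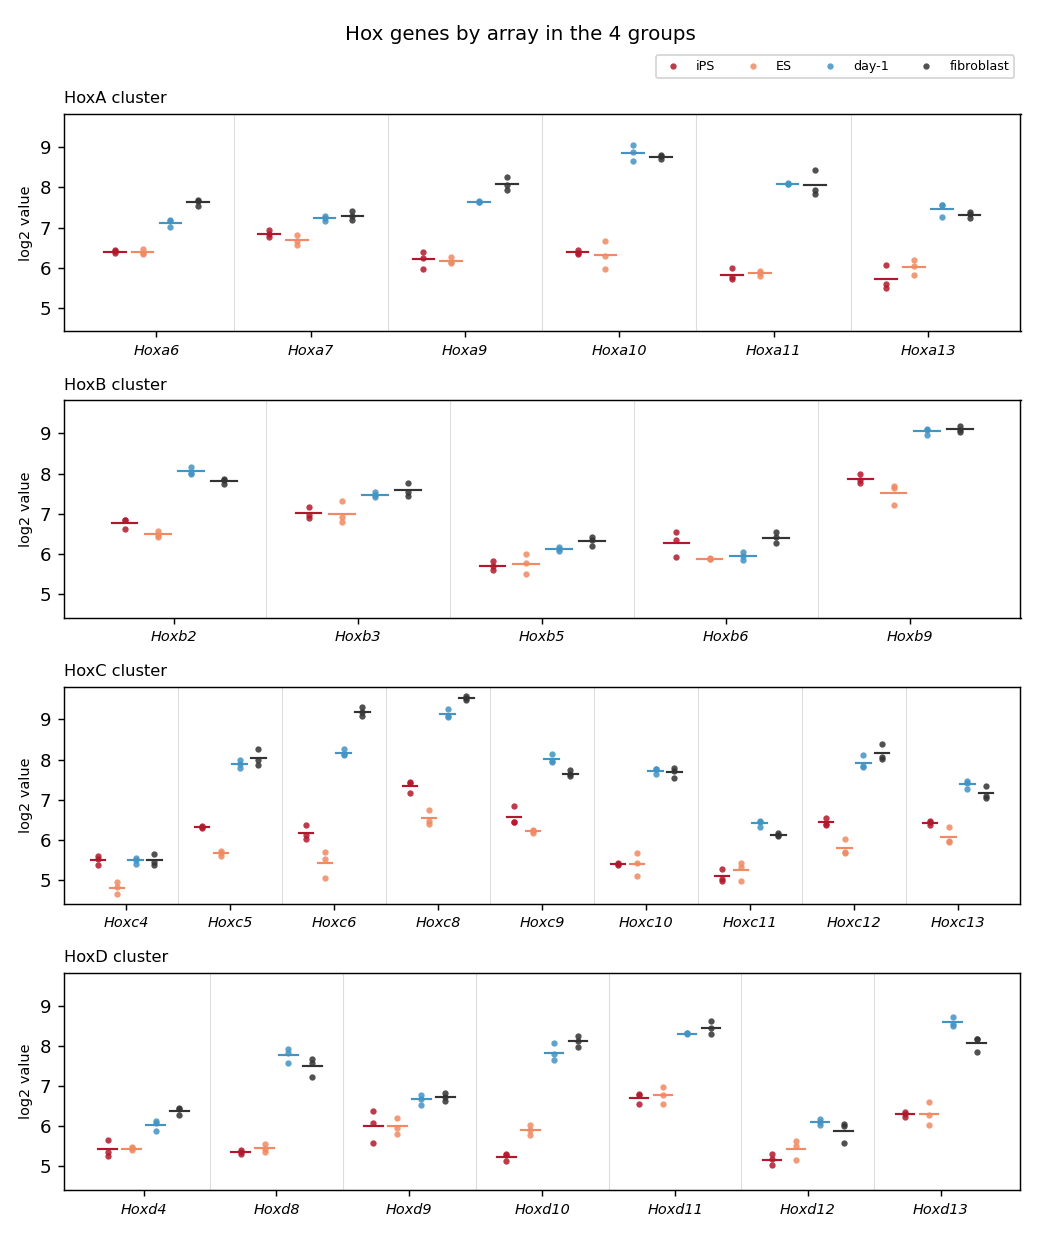
Log2 values of the 27 numbered Hox genes on each of 12 arrays, in 1 panel per cluster with genes ordered by paralogue number, and within each gene iPS cells, ES cells, day-1 cells and fibroblasts from left to right; points are arrays and bars are means of 3 arrays. For Hoxc6 the iPS arrays read 6.03 to 6.37 and the ES arrays 5.05 to 5.70, against 9.08 to 9.32 in fibroblasts, while for Hoxc4 the iPS arrays, at 5.37 to 5.61, overlap the fibroblast arrays, at 5.39 to 5.65.

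Upstream sequences are shown for Hoxd10, Hoxa11, Hoxd13 and Meis2, chosen after their values were seen. Hoxd10 and Hoxa11 fell in both pluripotent lines, Hoxd13 lies at the end of its cluster, and Meis2 differed between the lines. RefSeq promoters of 300 bases that span the annotated start on GRCm38.p6 matched 24 of the 42 members, with 27 promoters. No HoxB, Pknox or Pbx3 promoter was matched, and Hoxc4 alone of the HoxC genes, so the counts below leave most of these genes out. Each sequence is given 5′ to 3′ on the gene's strand with its CpG dinucleotides in capitals, and lies at chr2:74691641-74691940 on the plus strand for Hoxd10, chr6:52245761-52246060 on the minus strand for Hoxa11, chr2:74667975-74668274 on the plus strand for Hoxd13 and chr2:116064570-116064869 on the minus strand for Meis2.
Hoxd10: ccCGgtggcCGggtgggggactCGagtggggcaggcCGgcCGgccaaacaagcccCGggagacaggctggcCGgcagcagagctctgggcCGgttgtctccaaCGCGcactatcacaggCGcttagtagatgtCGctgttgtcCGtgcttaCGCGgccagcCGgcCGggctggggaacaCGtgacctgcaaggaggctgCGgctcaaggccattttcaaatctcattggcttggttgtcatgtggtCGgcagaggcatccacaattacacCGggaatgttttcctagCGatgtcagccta
Hoxa11: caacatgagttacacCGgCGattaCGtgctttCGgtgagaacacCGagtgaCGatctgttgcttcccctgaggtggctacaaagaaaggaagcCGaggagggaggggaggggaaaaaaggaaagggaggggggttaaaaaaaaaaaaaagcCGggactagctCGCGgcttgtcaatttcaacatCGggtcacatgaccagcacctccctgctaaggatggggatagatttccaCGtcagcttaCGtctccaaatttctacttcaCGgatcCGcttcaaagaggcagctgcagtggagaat
Hoxd13: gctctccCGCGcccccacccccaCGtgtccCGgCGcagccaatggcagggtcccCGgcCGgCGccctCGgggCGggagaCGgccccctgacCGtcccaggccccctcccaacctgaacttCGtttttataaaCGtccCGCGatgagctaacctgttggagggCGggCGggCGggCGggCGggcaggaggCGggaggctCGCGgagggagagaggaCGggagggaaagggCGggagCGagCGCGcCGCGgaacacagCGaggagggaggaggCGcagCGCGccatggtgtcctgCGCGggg
Meis2: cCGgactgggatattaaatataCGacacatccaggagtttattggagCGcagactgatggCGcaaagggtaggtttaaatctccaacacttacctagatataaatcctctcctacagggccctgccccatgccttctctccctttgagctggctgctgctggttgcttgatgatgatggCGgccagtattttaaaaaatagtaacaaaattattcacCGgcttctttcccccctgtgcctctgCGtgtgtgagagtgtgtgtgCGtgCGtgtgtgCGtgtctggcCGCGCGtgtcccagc
Hoxd13 held 37 CpG, a number that 5.58% of all 32851 RefSeq promoters of this length reach or pass. Hoxd10 held 22 CpG, Hoxa11 15 and Meis2 13, which 23.1%, 34.6% and 37.9% of all promoters reach or pass. The 27 member promoters had a median of 15 CpG and a range of 4 to 45, and the median over all promoters was 7. The Meis core TGACAG was found on either strand in 2 member promoters, those of Six2 and Six5, and in 19.2% of all promoters. The Pbx and Hox pair motif TGATTNAT was found in 1 member promoter, of Hoxd11, and in 3.22% of all promoters. The TATA motif TATAAA was found in 4 member promoters, those of Hoxd13, Meis2, Hoxd4 and Hoxa10, and in 13.62% of all promoters. No 2 of these motifs shared a promoter.

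Along the clusters, the 15 genes with paralogue numbers 9 to 13 had a median log2 difference of -1.72 in iPS cells and -1.68 in ES cells against fibroblasts, and 12 of the 15 fell in each line. The 12 genes with numbers 2 to 8 had a median of -1.0 in iPS cells and -1.09 in ES cells. Of these, 6 of the 12 fell in each line. The split is a description of the genes in the table. The lowest values stood at different numbers in the clusters, at Hoxa10 in HoxA, Hoxc6 in HoxC and Hoxd10 in HoxD for both lines, and at Hoxb9 in HoxB.

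**Figure D2:**
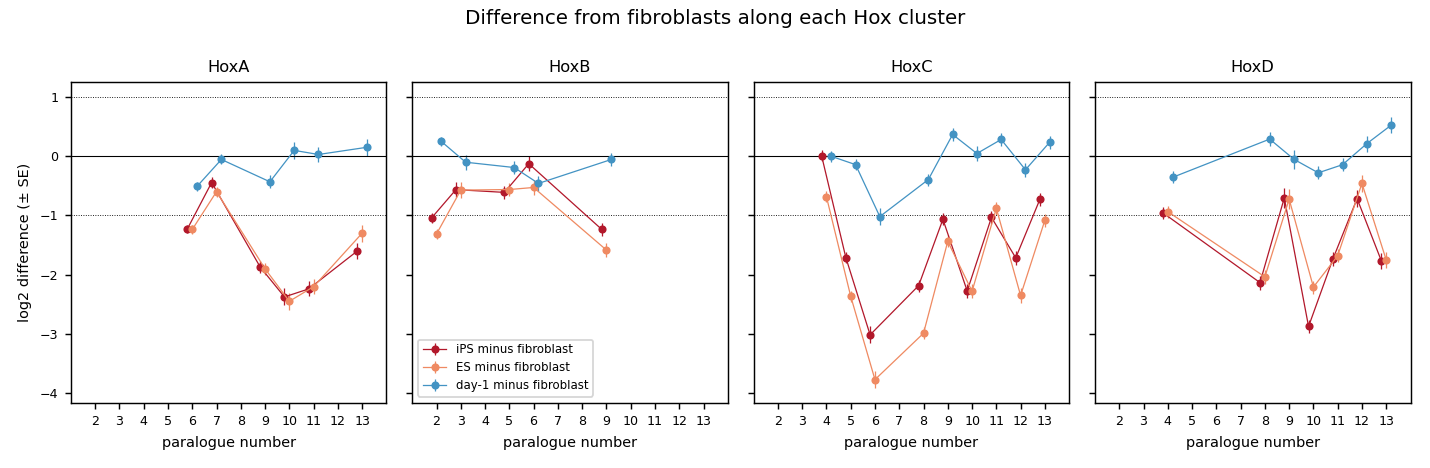
Log2 difference from fibroblasts (vertical axis, with its SE) by Hox paralogue number (horizontal axis) in the 4 clusters, for iPS cells, ES cells and day-1 cells; dotted lines mark a difference of 1 in either direction. HoxC reaches its lowest point at Hoxc6, with -3.02 in iPS cells and -3.77 in ES cells, while the day-1 line stays within 1 of zero except at Hoxc6, at -1.02.

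Meis1, Meis2 and Meis3, the DNA-binding partners that carry Hox and Pbx proteins into joint complexes, all fell in both pluripotent lines. Meis1, best known as the partner of Hoxa9, read 6.52, 6.30 and 6.67 in iPS cells and 6.42, 6.76 and 6.37 in ES cells, against 8.25, 8.37 and 8.56 in fibroblasts. The iPS and ES arrays overlapped and lay well below the fibroblast arrays. Meis1 was 3.72-fold lower in iPS cells (log2 difference -1.90 ± 0.12 SE, limma adjusted p = 3.95e-09) and 3.68-fold lower in ES cells. Meis3, a regulator of hindbrain development, differed by -1.41 ± 0.10 in iPS cells and -1.44 ± 0.10 in ES cells. Meis2, needed for cranial neural crest and the heart's outflow tract, was 2.54-fold lower in iPS cells and 7.51-fold lower in ES cells.

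Pbx3, a partner that raises the DNA-binding specificity of Hox proteins, read 7.36, 6.76 and 7.16 in iPS cells and 7.58, 7.62 and 7.50 in ES cells, against 8.99, 8.86 and 9.0 in fibroblasts. Every pluripotent array was below every fibroblast array. The log2 difference was -1.86 ± 0.12 (SE, limma adjusted p = 4.01e-09) in iPS cells and -1.38 ± 0.12 (limma adjusted p = 7.55e-08) in ES cells. Pbx2, a broadly expressed family member, was not called, at -0.50 in iPS cells and -0.68 in ES cells.

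Pknox1, also known as Prep1 and a partner of Pbx proteins, ran the other way. It read 7.96, 7.94 and 8.03 in iPS cells and 8.24, 8.29 and 8.06 in ES cells, against 7.13, 7.14 and 7.21 in fibroblasts. Both lines lay above fibroblasts on every array. The ES difference of 1.04 ± 0.07 (limma adjusted p = 1.17e-08) was called and the iPS difference of 0.82 ± 0.07 fell short of the 2-fold minimum. Without ES replicate 2 the ES call was lost, and with centred arrays or quantile normalization Pknox1 was also called in iPS cells. Pknox2, or Prep2, was called in neither line, at 0.69 in iPS cells and -0.44 in ES cells.

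Irx1, which takes part in heart, lung and limb patterning, read 6.65, 6.96 and 6.64 in iPS cells and 6.78, 6.41 and 5.86 in ES cells, against 8.49, 8.55 and 8.68 in fibroblasts. It was 3.54-fold lower in iPS cells (limma adjusted p = 6.22e-07) and 4.67-fold lower in ES cells (limma adjusted p = 7.31e-08). Irx5, which shapes the heart's repolarisation gradient, differed by -1.22 ± 0.16 in iPS cells and -1.34 ± 0.16 in ES cells. Irx2, a neighbour of Irx1 in its cluster, was called in ES cells at -1.08 and not in iPS cells at -0.97. Irx3, a neighbour of Irx5 that acts in neural tube and limb, was not called, at -0.69 in iPS cells and -0.32 in ES cells. With centred arrays the calls of Irx5 in both lines and of Irx2 in ES cells were lost, and the ES value of Irx3 turned positive.

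Among the sine oculis genes, Six5, a gene next to the myotonic dystrophy repeat, read 6.48, 6.38 and 6.24 in iPS cells and 6.28, 6.54 and 6.33 in ES cells, against 7.66, 7.68 and 7.45 in fibroblasts. Its log2 difference was -1.23 ± 0.11 (SE, limma adjusted p = 8.57e-08) in iPS cells and -1.22 ± 0.11 in ES cells. Both calls were lost with centred arrays. Six2, which maintains kidney progenitors, was not called, at -0.52 in iPS cells and -0.53 in ES cells. Six4, which acts in muscle development, lay above fibroblasts without a call, at 0.68 in iPS cells and 0.61 in ES cells.

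**Figure D3:**
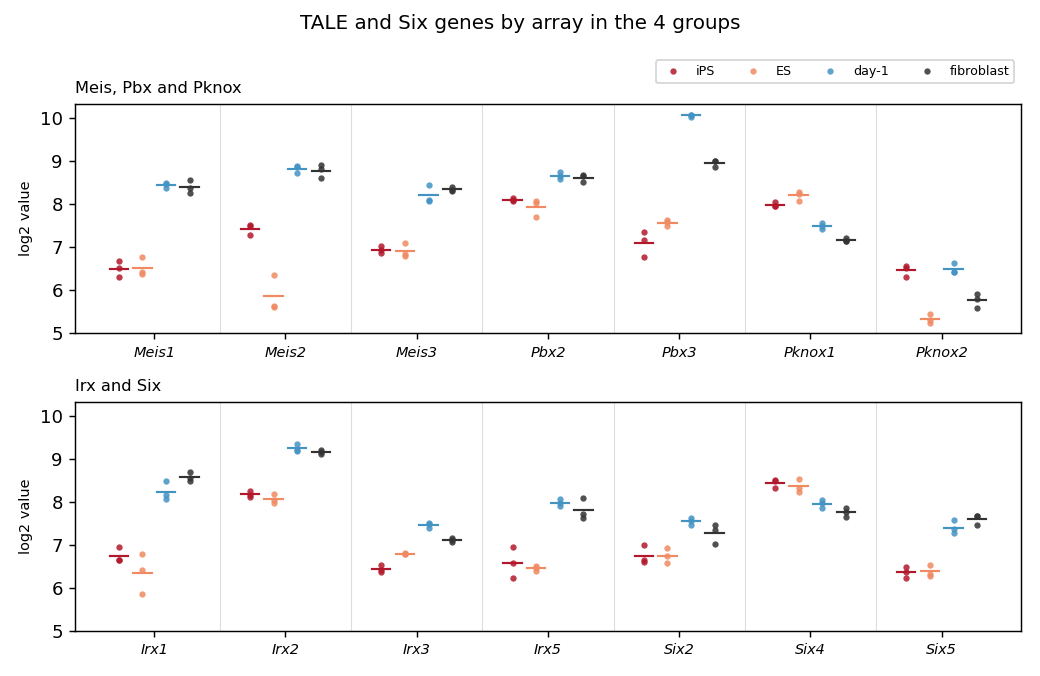
Log2 values of the 11 TALE members and 3 sine oculis genes (Six2, Six4, Six5) on each of 12 arrays, with iPS cells, ES cells, day-1 cells and fibroblasts from left to right within each gene; points are arrays and bars are means of 3 arrays. Pbx3 reads 10.02 to 10.07 in day-1 cells against 8.86 to 9.0 in fibroblasts, and Meis2 reads 7.28 to 7.51 in iPS cells against 5.60 to 6.36 in ES cells.

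The next question was whether the Hox pattern had moved after 1 day of doxycycline. Of the 42 members 1 rose, 1 fell and 40 were not called in day-1 cells against fibroblasts, where 7.79% of all genes were called, 3.46% higher and 4.33% lower. For those 40 members, and for 8219 of all 9539 genes, the 95% interval of the log2 difference lay within 1 of zero. The median was 0.04 over the members and 0.05 over all genes. The arrays of 18 members did not overlap between the groups, 10 higher and 8 lower in day-1 cells, against 67.3% of all genes.

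Pbx3 was the member that rose. It read 10.07, 10.07 and 10.02 in day-1 cells, against 8.99, 8.86 and 9.0 in fibroblasts. The day-1 arrays were the highest of all 12 for this gene, since both pluripotent lines lay below the fibroblasts. The increase was 2.15-fold (log2 difference 1.11 ± 0.12 SE, limma adjusted p = 5.54e-06). Hoxc6 was the member that fell. It read 8.13, 8.14 and 8.27 in day-1 cells, against 9.08, 9.19 and 9.32 in fibroblasts. The groups were separated and the day-1 level lay between the fibroblast and pluripotent levels. The decrease was 2.03-fold (log2 difference -1.02 ± 0.14 SE, limma adjusted p = 5.74e-05), close to the minimum, and the call was lost without day-1 replicate 1 and without fibroblast replicate 3. Against a null of a 2-fold change, tested with limma's treat, neither Pbx3 nor Hoxc6 passed.

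Below the 2-fold minimum, 14 further members had a limma adjusted p under 0.05, which held for 57.1% of all genes. Pknox2 read 6.62, 6.41 and 6.42 in day-1 cells, against 5.59, 5.80 and 5.91 in fibroblasts, with no overlap and a log2 difference of 0.72 ± 0.10. Hoxd13 read 8.72, 8.55 and 8.49 in day-1 cells, against 8.18, 7.84 and 8.17 in fibroblasts, and differed by 0.52 ± 0.13. Hoxa6 read 7.18, 7.17 and 7.0 in day-1 cells, against 7.67, 7.68 and 7.54 in fibroblasts, and differed by -0.51 ± 0.07. In all 3 genes the groups were separated. Hoxc8, Hoxa9, Hoxb6 and Hoxd4 lay between -0.46 and -0.36, and Hoxc9, Pknox1, Irx3 and Hoxd3os1 between 0.33 and 0.37. The 12 Hox genes with numbers 2 to 8 had a median of -0.17, with 10 of 12 below zero, and the 15 with numbers 9 to 13 a median of 0.04, with 6 of 15 below zero. The difference between these 2 sets was not tested. Fibroblast markers in the same arrays had a mean of 11.07 to 11.16 in day-1 cells against 11.25 to 11.49 in fibroblasts and 2 of 14 were called lower. Of 4 neural markers 3 were higher, with a mean of 8.82 to 8.91 in day-1 cells against 6.56 to 6.86 in fibroblasts. Of 7 macrophage markers 3 were lower and 1 was higher, with a mean of 7.19 to 7.34 in day-1 cells against 7.54 to 7.79 in fibroblasts. Of 5 smooth muscle markers 2 were higher, with a mean of 11.28 to 11.35 in day-1 cells against 10.47 to 10.78 in fibroblasts. The part of these markers in the day-1 differences was not tested. Day-1 cells came from mice made with iPS cells and had changed medium, so the mouse source, the medium and the induced factors cannot be told apart.

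**Figure D4:**
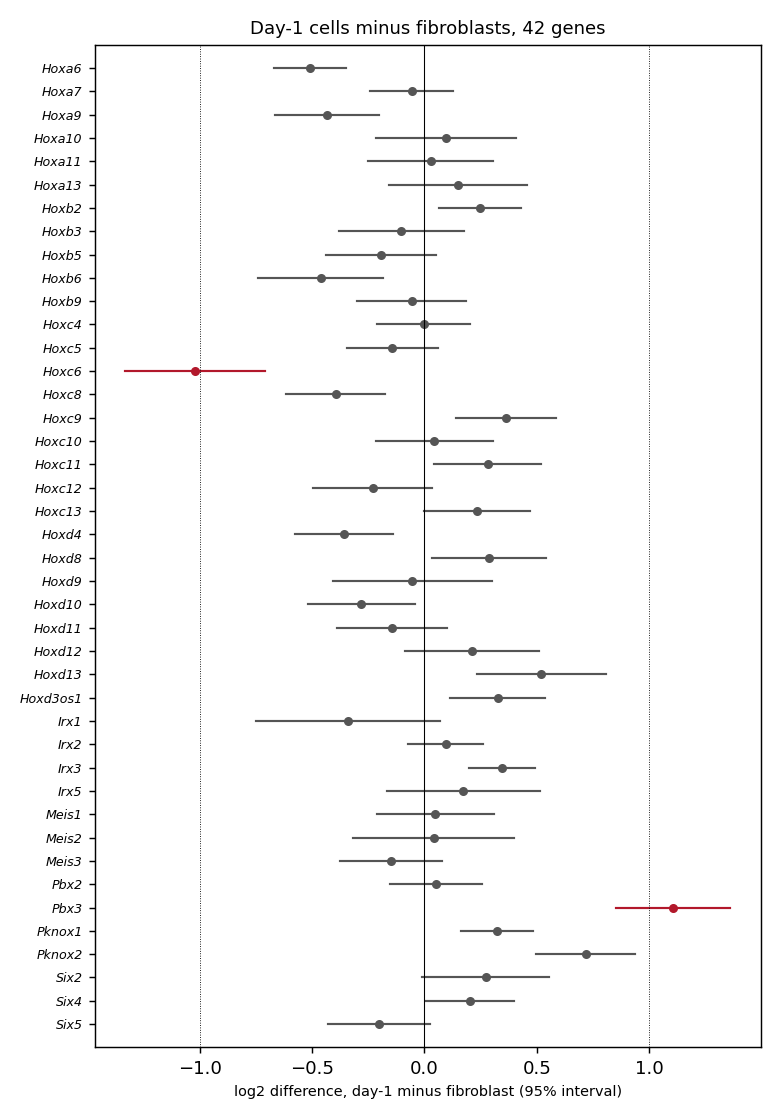
Log2 difference of day-1 cells minus fibroblasts for the 42 members, with 95% intervals from limma; the horizontal axis is the difference, dotted lines mark a difference of 1 in either direction, and red marks the called members. Pbx3, at 1.11, and Hoxc6, at -1.02, are the called members, and the intervals of the other 40 lie within the dotted lines.

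The iPS cells were then compared with day-1 cells. The day-1 cells came from OT-iPSC mice, so this contrast is not a course of 1 culture in time. Of the 42 members 26 were lower in iPS cells and 0 were higher by limma, with a median log2 difference of -1.27, and 3 were higher at an unadjusted p under 0.05. Over all genes 26.6% were lower and 17.6% higher, 44.2% in either direction, and the median was -0.34. Arrays of 38 members did not overlap, against 94.0% of all genes, and 39 had an adjusted p under 0.05, against 92.8%. Pbx3 showed the widest gap of any member, with 7.36, 6.76 and 7.16 in iPS cells against 10.07, 10.07 and 10.02 in day-1 cells. That is a 7.81-fold difference (log2 difference -2.96 ± 0.12 SE, limma adjusted p = 6.57e-11), where the difference of iPS cells from fibroblasts was 3.63-fold. Hoxd10 followed, with 5.31, 5.28 and 5.13 in iPS cells against 8.06, 7.79 and 7.66 in day-1 cells. Hoxa10, Hoxd8, Hoxc10, Hoxd13 and Hoxa11 were lower in iPS cells by 4.82-fold to 5.56-fold. For Hoxc6 the gap was 3.99-fold (log2 difference -2.0 ± 0.14 SE, limma adjusted p = 1.72e-08). In all, 17 of 27 numbered Hox genes, 8 of 11 TALE genes and 1 of 3 sine oculis genes were called lower. Irx1, Irx2, Irx3 and Irx5 were all called, and the calls of Irx2, Irx3, Hoxb9 and Six5 were lost with centred arrays and with quantile normalization.

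The last question was whether the iPS line matched the ES line. Of the 42 members 2 were called, both higher in iPS cells, while 6.90% of all genes were called, 4.44% higher and 2.45% lower. For 38 of the 42 members, and for 8294 of all 9539 genes, the 95% interval lay within 1 of zero. Meis2 read 7.28, 7.51 and 7.49 in iPS cells, against 5.60, 6.36 and 5.64 in ES cells. Every iPS array was above every ES array, and both groups were below the fibroblasts. Meis2 was 2.96-fold higher in iPS cells (log2 difference 1.56 ± 0.17 SE, limma adjusted p = 5.60e-06). Pknox2 read 6.51, 6.30 and 6.56 in iPS cells, against 5.44, 5.24 and 5.30 in ES cells. Its groups were separated too, and the iPS arrays overlapped the day-1 arrays. Pknox2 was 2.19-fold higher in iPS cells (log2 difference 1.13 ± 0.10 SE, limma adjusted p = 1.35e-06). Both calls held in each fit that left out 1 array, and neither passed limma's treat at 2-fold.

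Of the 27 numbered Hox genes 0 were called between the lines by limma. An adjusted p under 0.05 was reached by 17 of the 42 members, 11 of them numbered Hox genes, against 57.7% of all genes, and 11 Hox genes had an unadjusted p under 0.05. The clusters are given one by one, and differences between them were not tested. The HoxA genes had a median log2 difference of 0.02, and the arrays of all 6 overlapped between iPS and ES cells. Hoxa10, for example, differed by 0.07, with a 95% interval of -0.24 to 0.39. In HoxC the median was 0.64, and 7 of 9 genes had non-overlapping arrays, each higher in iPS cells, while 61.5% of all genes did not overlap in one direction or the other. Hoxc8 was 1.75-fold higher in iPS cells (log2 difference 0.80 ± 0.10 SE, limma adjusted p = 2.44e-05) and Hoxc6 1.69-fold higher (0.76 ± 0.14, limma adjusted p = 6.11e-04). Hoxc4, Hoxc5 and Hoxc12 were 1.55-fold to 1.62-fold higher, below the minimum for a call. Hoxc10 and Hoxc11 differed by 0.00 and -0.15 with overlapping arrays. In HoxB the median was 0.27, and 3 of 5 genes had non-overlapping arrays, each higher in iPS cells. In HoxD the median was -0.06. Hoxd10 differed by -0.67 ± 0.11 (limma adjusted p = 2.13e-04), lower in iPS cells, and Hoxd3os1 was higher by 0.73 ± 0.10, both short of the minimum. Pbx3 differed by -0.47 ± 0.12 and Irx3 by -0.37 ± 0.07, also without a call.

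Markers of other cells moved in the same arrays. The 14 fibroblast markers averaged 9.0 to 9.10 in iPS cells against 8.04 to 8.41 in ES cells, and 5 of 14 were called higher and 1 lower in iPS cells. All 5 smooth muscle markers were higher, with a mean of 9.87 to 9.91 in iPS cells against 7.25 to 7.96 in ES cells. Over all genes 4.44% were called higher and 2.45% lower in iPS cells. On ES replicate 2, Acta2, a smooth muscle actin, read 10.22, against 9.10 and 9.26 on ES replicates 1 and 3, and Meis2 was highest on the same array, while Hoxc6 and Hoxc8 lay between the other two ES arrays and Pknox2 below them. Without ES replicate 2 the log2 difference was 1.81 for Meis2 (limma adjusted p = 5.54e-08) and 1.09 for Pknox2 (limma adjusted p = 7.43e-06). Hoxc6 then differed by 0.81 and Hoxc8 by 0.77. The part of these markers in the HoxC, Meis2 and Pknox2 differences was not tested, and a single ES array cannot show it. The lines also differ in strain and passage, and a plating step to remove feeders is described for the ES cells. None of these can be told apart from how the lines were made.

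**Figure D5:**
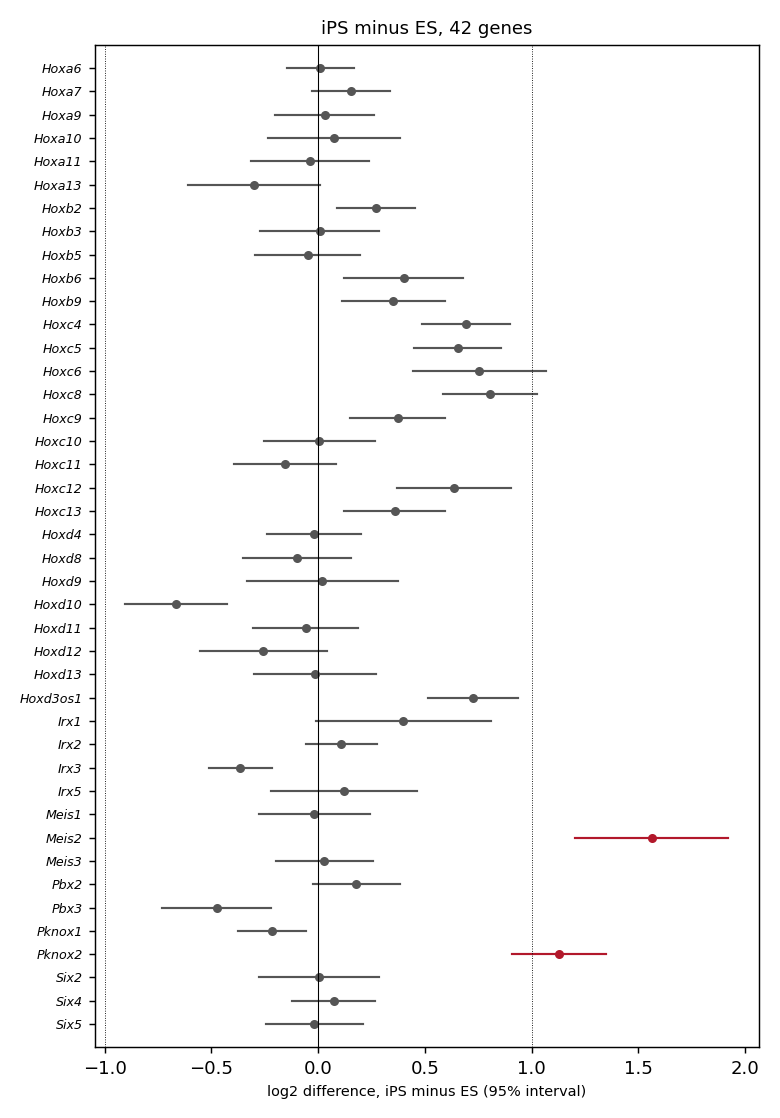
Log2 difference of iPS cells minus ES cells for the 42 members, with 95% intervals from limma; the horizontal axis is the difference, dotted lines mark a difference of 1 in either direction, and red marks the called members. Meis2, at 1.56, and Pknox2, at 1.13, are called, and the HoxC genes from Hoxc4 to Hoxc8 lie between 0.65 and 0.80.

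Genes that regulate or accompany the members were read from lists. Over all genes, 21.8% rose and 29.6% fell in iPS cells against fibroblasts, and 23.4% rose and 32.1% fell in ES cells. The median over all genes was -0.35 in both. Of 30 subunits of the Polycomb complexes PRC1 and PRC2, which hold Hox clusters silent, 22 were in the table, and 9 rose and 4 fell in iPS cells against fibroblasts, with a median of 0.66. In ES cells 10 rose and 4 fell, with a median of 0.81. Mtf2, a PRC2 accessory subunit, was higher by a log2 difference of 3.05 ± 0.09 in iPS cells and 3.14 ± 0.09 in ES cells. Phc1, a PRC1 subunit, was higher by 2.62 ± 0.07 in iPS cells and 3.48 ± 0.07 in ES cells. Among the 4 that fell, Phc3 was lower by -2.22 ± 0.11 in iPS cells and -2.20 ± 0.11 in ES cells. Yaf2 was lower by -2.11 ± 0.08 in iPS cells and -2.54 ± 0.08 in ES cells. In day-1 cells against fibroblasts the median of the 22 was 0.07, and that of all genes was 0.05. Jarid2, another PRC2 accessory subunit, was called between the lines, lower by -1.13 ± 0.08 in iPS cells against ES cells. Of 12 measured MLL complex subunits and H3K27 demethylases, which keep Hox genes active, 5 rose and 1 fell in iPS cells against fibroblasts, with a median of 0.59. In ES cells 7 rose, with a median of 1.34. Kmt2a, the histone methyltransferase MLL1, was 1 of 2 genes of this list called between the lines, where 6.90% of all genes were called. Kmt2a was lower in iPS cells than in ES cells by a log2 difference of -1.01 ± 0.07.

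In the retinoic acid pathway, which sets Hox expression in the embryo, 10 of 19 listed genes were in the table, and 5 fell in iPS cells while 4 fell and 1 rose in ES cells, against fibroblasts. The medians were -0.90 in iPS cells and -0.53 in ES cells. For this and the following lists, 29.6% of all genes fell and 21.8% rose in iPS cells, and 32.1% fell and 23.4% rose in ES cells. Crabp1, which binds retinoic acid in the cytoplasm, was lower by a log2 difference of -3.96 ± 0.07 in iPS cells and -2.87 ± 0.07 in ES cells. In day-1 cells Aldh1a3, an enzyme that makes retinoic acid, was higher by 2.22 ± 0.14 and Rbp4, which carries retinol in blood, was lower by -1.22 ± 0.14. Of 15 measured limb and positional transcription factors 13 fell in each pluripotent line and 1 rose in iPS cells, with medians of -2.42 in iPS cells and -2.57 in ES cells, where the median over all genes was -0.35 in both. Tbx15, a skeletal and skin patterning factor, was lower by -4.30 ± 0.20 in iPS cells and -5.96 ± 0.20 in ES cells. Between the lines it was called at 1.66 ± 0.20. Tbx3, a limb and mammary patterning factor, was the one that rose, by 1.35 ± 0.12 in iPS cells, and it was not called in ES cells at 0.92 ± 0.12. Twist2, a dermal factor, fell by 1.36 ± 0.10 in day-1 cells. It was the 1 gene of the 15 called there, where 7.79% of all genes were called. Of 7 measured Cdx genes and homeobox genes of the Hox neighbourhood, 2 rose and 2 fell in each line, and Cdx1, an activator of Hox genes in the embryo, was higher by 2.03 ± 0.09 in iPS cells against fibroblasts and by 1.17 ± 0.09 against ES cells. Of 3 measured Eya and Dach genes, Eya4, a cofactor of sine oculis proteins, and Dach1, a corepressor in the same network, fell in both pluripotent lines. Dach1 also fell in day-1 cells, by 1.18 ± 0.12. Eya1 was not called against fibroblasts, at 0.57 in iPS cells and -0.50 in ES cells. Between the lines Eya1 was called higher in iPS cells, by 1.08 ± 0.13. Of 3 TALE genes or Pbx-binding genes outside the members, 1 rose and 1 fell in each line. Tgif2, a TALE repressor, rose by 1.36 ± 0.10 in iPS cells and 1.48 ± 0.10 in ES cells.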

How the data were processed

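The value table that the authors deposited holds log2 values of 10360 probe sets on 12 Affymetrix whole-transcript arrays, 3 for each of 4 groups, hybridised with biotin-labelled total RNA per the labels. Log2 was taken from the range of 2.43 to 13.64. Summarisation, normalization and any filter are not given in the sources used here, and the number of arrays limits the precision. Of the probe sets, 9542 had 1 gene symbol in the platform annotation, 344 had several and 474 had none. Only those with 1 symbol were used, and the brightest stood for each of 3 genes with over 1, which left 9539 genes. One probe set naming several genes, Hox genes among them, was left out. Annotation identifiers matched RefSeq (GRCm38.p6) for 9533 probe sets.

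Differences were tested with limma 3.58.1 in R 4.3.3, in 1 fit of group means to the 12 arrays with eBayes moderation. P-values were adjusted by Benjamini-Hochberg over all 9539 genes. Every adjusted p is limma's. Called means an adjusted p under 0.05 and a log2 difference of at least 1. Members were chosen by symbol, and every member may be named. List genes were named where called, up to 4 per list and comparison by size, and the largest falls of the Polycomb list were named too. The members and lists were chosen with earlier results of these data known. The lists, all described in the text, hold Polycomb, MLL, retinoic acid, Cdx, Eya and Dach, other TALE, limb and marker genes. On simulated data for the 9539 genes, the iPS against ES comparison called 98% of genes with a true log2 difference of 1.5 and 48% of those with 1. A true difference of 1 lies on the minimum for a call, which holds that share down. The simulated spread was that among arrays of a group, which may be technical. Alternatives were quantile normalization, centred arrays, no dim genes, every probe set, the 2 groups alone, array weights, a trended robust prior, limma's treat at 2-fold, no fold minimum, a replicate block and leaving out each array. Figures were drawn with matplotlib 3.10.9, pandas 2.3.3 and numpy 2.4.6 under Python 3.11.15.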

Additional observations from a re-analysis of the deposited data

How the results depend on the processing

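Counts of called members depended most on the fold minimum. Without it, 16 members were called in day-1 cells against fibroblasts, 40 in iPS cells against fibroblasts, 41 in ES cells against fibroblasts and 17 between iPS and ES cells, against 2, 25, 27 and 2 with it. Over all genes the shares without the minimum were 57.1%, 94.2%, 94.9% and 57.7%, in the same order. With limma's treat at 2-fold, 0 members were called in day-1 cells against fibroblasts and 0 between iPS and ES cells, where 18 and 17 had an unadjusted p under 0.05. An unadjusted p under 0.05 was reached by 5870 and 5926 of all 9539 genes. Leaving out the dimmest 25% of genes left 16 calls in iPS cells against fibroblasts, 17 in iPS against day-1 cells and 1 between iPS and ES cells, by construction, since Hoxa11, Hoxd10, Pknox2 and others were then not tested. Leaving out each array in turn gave 1 to 2 calls in day-1 cells, 24 to 26 in iPS cells and 26 to 27 in ES cells against fibroblasts, 25 to 27 in iPS against day-1 cells, and 2 to 2 between the pluripotent lines. Irx3 in ES cells against fibroblasts turned to 0.024 with centred arrays (limma adjusted p = 0.741), and the cause was not tested. Replicate numbers did not pair the samples, as the 18 correlations of same-numbered arrays lay between -0.208 and 0.064. A replicate block gave 25 called members in iPS cells, 27 in ES cells and 2 in day-1 cells against fibroblasts, 26 in iPS against day-1 cells and 2 between the pluripotent lines, the same genes as without it. The low signal of some probe sets limits small differences, and a bound from background cannot be set without detection values.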

Other observations

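The HoxC cluster also holds a microRNA gene, Mir196a-2, which lies between Hoxc10 and Hoxc9 and whose product is known to act on transcripts of Hoxb8. It is shown because its probe set was in the table beside those of its 9 HoxC neighbours. The mature RNA maps to chr15:102973365-102973386 on the plus strand of GRCm38.p6 in RefSeq, and its seed, bases 2 to 8, is in capitals.
mmu-miR-196a-5p: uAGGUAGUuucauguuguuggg
The probe set read 4.37, 4.04 and 3.88 in iPS cells and 4.53, 4.12 and 4.51 in ES cells, and 4.26, 4.32 and 4.57 in day-1 cells against 4.71, 4.57 and 4.64 in fibroblasts. In iPS cells against fibroblasts Mir196a-2 differed by -0.54 ± 0.14 on the log2 scale (limma adjusted p = 0.00189), with no overlap of the arrays, and was called in no comparison. The labelling was that for long transcripts, so the values belong to the probe set and are not a level of the mature RNA.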
